A study of Mus musculus with 10 samples.

Results

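The genes described mark medium spiny neurons of the striatum, and are Ppp1r1b, Drd1, Drd2, Adora2a, Gpr6, Rgs9, Pde10a, Rasgrp2 and Rarb. They were picked by name, and each was read from the brightest probe set that the platform annotation pairs with that gene alone. Of the 9 genes, 8 had such a probe set, out of 18820 genes with one; Adora2a, the adenosine receptor gene of indirect pathway neurons, had none here and is not analysed. All 8 passed the filter on dim signal on all 8 individual arrays, so none entered only through 1 group.

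Medium spiny neurons are the principal cells of the striatum, the forebrain nucleus that receives dopamine from the midbrain. They carry either the D1 dopamine receptor, which raises cyclic AMP, or the D2 receptor, which lowers it, and both kinds hold a shared set of cyclic AMP signalling proteins. The striatum is not part of the hypothalamus but lies close to it, so genes of these cells can show how much neighbouring forebrain a hypothalamic dissection holds. Several of them are also expressed in other cells, Drd2 for example in midbrain dopamine neurons and in the pituitary.

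The arrays measured hypothalamus RNA of male CDF1 mice aged 10 to 11 weeks, killed on day 20. Tumour-bearing mice had received 1000000 C26 cells, a colon adenocarcinoma line used to model cancer cachexia, under the skin in 0.2 ml of HBSS (Hanks' balanced salt solution), and controls 0.2 ml of HBSS without cells. There were 3 control and 5 tumour-bearing mice on arrays of their own, 1 array of a pool of 4 control animals and 1 array of a pool of 5 tumour-bearing animals. Whether the individually arrayed mice also entered the pools is not given in the labels. Values are levels on the log2 scale made by RMA, a method that sets arrays processed together to 1 common distribution. Differences are tumour-bearing minus control on that scale, with SD over mice or the standard error (SE) of the fit. The number of arrays limits the precision, and in bulk tissue fewer cells of a type and less RNA per cell cannot be told apart.

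The tissue carried hypothalamic transcripts: 18 of 20 listed marker genes had a probe set and all 18 passed the filter. So did 12978 of all 18820 genes and 11 of 12 listed midbrain dopamine neuron genes, so this count does not tell the tissue apart. Individual arrays correlated at 0.980 to 0.989 over all tested probe sets. Some arrays stood apart in markers of neighbouring tissue. The growth hormone gene Gh was at 10.45 and 10.48 in tumour-bearing mice 3 and 4 and at 9.82 in the tumour-bearing pool, against 4.21 to 5.51 in the other individual mice. The serotonin transporter gene Slc6a4 was at 6.45 and 5.93 in controls 2 and 3, against 3.56 to 4.34 in the other individual mice.

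No medium spiny neuron gene passed the threshold between the groups (limma, 0 of 8 at an adjusted p under 0.05; 2 higher and 1 lower at an unadjusted p under 0.05). Over all 12978 tested genes 0.0771% were called, all of them higher, and 10.3% had an unadjusted p under 0.05, 3.78% higher and 6.51% lower. Without tumour-bearing mouse 1 none of the 8 was called either (limma, 0 of 8, against 0.0308% of tested genes). Of the 8, 4 then had an unadjusted p under 0.05, against 9.42%: Gpr6, Rgs9 and Pde10a were higher and Drd2 was lower. Mouse 1 was the highest individual array for 5 of the 8 genes, so setting it aside is a choice that follows these same values. The clearest pattern lay in single arrays. Tumour-bearing mouse 1 and the tumour-bearing pool were high for Ppp1r1b, Drd1 and Pde10a, while Gpr6, Rgs9 and Pde10a were also somewhat higher in most or all of the other tumour-bearing mice. The median difference of the 8 genes was 0.17, against -0.010 over all tested genes, and it was -0.00015 without tumour-bearing mouse 1.

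**Figure D1:**
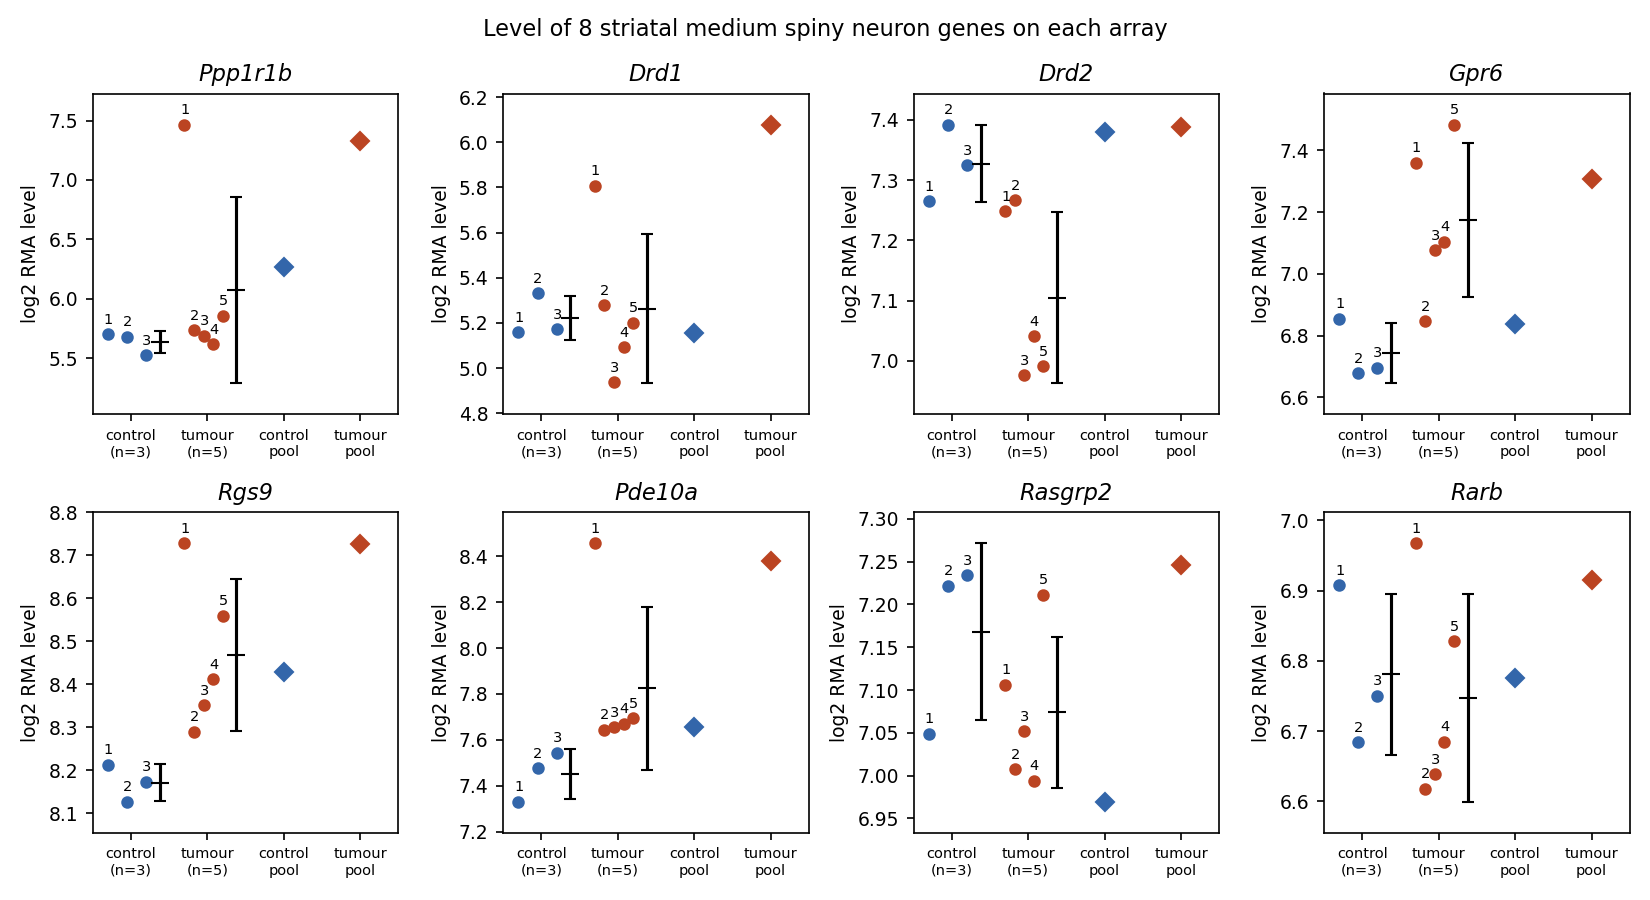
Level (log2 RMA) of each of 8 medium spiny neuron genes, with 1 panel per gene and its own axis range: circles are individual mice with their number, the bar beside each group is mean ± SD, and diamonds are the pools, each 1 array. Tumour-bearing mouse 1 stands at 7.47 for Ppp1r1b and 8.46 for Pde10a, above all other individual mice, and the tumour-bearing pool lies near it at 7.32 and 8.38.

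Ppp1r1b encodes DARPP-32, the dopamine-regulated inhibitor of protein phosphatase 1 and a classic marker of medium spiny neurons. Its level was 5.70, 5.68 and 5.53 in controls 1, 2 and 3, and 7.47, 5.73, 5.69, 5.62 and 5.86 in tumour-bearing mice 1 to 5. Mouse 1 alone lay far above the rest, and the other 4 tumour-bearing mice overlapped with or lay just above the controls. The level in mouse 1 was 3.05-fold that of the next highest individual array. Among 12978 tested genes no other exceeded the remaining 7 individual arrays by as much in mouse 1. The group means were 5.64 ± 0.10 (SD, n = 3) and 6.07 ± 0.78 (SD, n = 5), and the difference of 0.44 ± 0.38 SE did not pass (limma adjusted p = 0.742). Without mouse 1 it was 0.09 ± 0.10 SE (limma adjusted p = 0.806), with a 95% interval of -0.13 to 0.31.

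Drd1 encodes the D1 receptor of the direct pathway. It was at 5.16, 5.33 and 5.17 in controls 1, 2 and 3, and at 5.81, 5.28, 4.94, 5.09 and 5.20 in tumour-bearing mice 1 to 5. Mouse 1 was again the highest, 1.39-fold above the next array, and the lowest values were those of tumour-bearing mice 3 and 4, so the groups overlapped. The difference was 0.04 ± 0.18 SE (limma adjusted p = 0.964); it was -0.09 ± 0.12 SE without mouse 1 (limma adjusted p = 0.842).

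Pde10a encodes the phosphodiesterase that breaks down cyclic AMP and cyclic GMP in both kinds of medium spiny neuron. Its level was 7.33, 7.48 and 7.54 in controls 1, 2 and 3, and 8.46, 7.64, 7.65, 7.67 and 7.69 in tumour-bearing mice 1 to 5. The groups did not overlap, with mouse 1 standing 1.70-fold above the next array and the other 4 within 7.64 to 7.69. The difference was 0.37 ± 0.18 SE (1.30-fold; limma adjusted p = 0.505). Without mouse 1 it was 0.22 ± 0.06 SE (1.16-fold, limma adjusted p = 0.332), with a 95% interval of 0.08 to 0.35. That mouse held the highest value, so leaving it out also narrows the spread. The interval is not adjusted for the number of genes tested.

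Gpr6 encodes a constitutively active receptor that raises cyclic AMP and marks the D2 receptor neurons of the indirect pathway. It was at 6.85, 6.68 and 6.70 in controls 1, 2 and 3, and at 7.36, 6.85, 7.08, 7.10 and 7.48 in tumour-bearing mice 1 to 5. Here mouse 5 was the highest, and 4 of 5 tumour-bearing mice lay above all controls, mouse 2 falling just below control 1. The means were 6.74 ± 0.10 (SD, n = 3) and 7.17 ± 0.25 (SD, n = 5), a difference of 0.43 ± 0.13 SE or 1.35-fold that did not pass (limma adjusted p = 0.319). It was similar without mouse 1, at 0.39 ± 0.14 SE (limma adjusted p = 0.415).

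Rgs9 encodes a regulator that shortens G protein signals, and its striatal form acts on D2 receptor signalling. It was at 8.21, 8.13 and 8.17 in controls 1, 2 and 3, and at 8.73, 8.29, 8.35, 8.41 and 8.56 in tumour-bearing mice 1 to 5. The groups did not overlap, and mice 1 and 5 were the highest, as for Gpr6. The difference was 0.30 ± 0.09 SE (1.23-fold; limma adjusted p = 0.321) and 0.23 ± 0.07 SE without mouse 1 (limma adjusted p = 0.345). Rgs9 and Pde10a were the 2 of 8 genes whose groups did not overlap, both with tumour-bearing mice higher; the same held for 3.11% of all tested genes. Without mouse 1 the count was again 2, against 4.36%, and none was separated in the lower direction, against 6.54%.

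The hypothalamic and oligodendrocyte marker lists are set beside Gpr6, Rgs9 and Pde10a. None of the 18 tested hypothalamic genes passed the threshold (limma, 0 of 18). Higher at an unadjusted p under 0.05 were 5 of the 18, against 3.78% of all tested genes. The mean centred level of the 18 genes was -0.18 to -0.09 in controls and -0.05 to 0.25 in tumour-bearing mice, with mouse 5 the highest. In the pools the median difference of the 18 was -0.0045, and 9 were positive, against 47.3% of all tested genes. None of the 10 tested oligodendrocyte genes, markers of the myelin-forming cells, passed either (limma, 0 of 10). Lower at an unadjusted p under 0.05 were 7 of the 10, against 6.51% of all tested genes. The mean centred level of the 10 genes was 0.21 to 0.31 in controls and -0.48 to 0.19 in tumour-bearing mice. The part of either in the values of these genes was not tested.

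The sequences before the start sites of Gpr6 and Rgs9 are shown because these were the 2 genes of the set with the smallest unadjusted p. Both are the 250 bases upstream of the RefSeq start on the minus strand of GRCm38.p6, at chr10:41072291-41072540 for Gpr6 and chr11:109298182-109298431 for Rgs9, written 5′ to 3′ in the direction of transcription. Capitals mark the full cyclic AMP response element TGACGTCA, the site bound by CREB, which was searched on both strands.
Gpr6: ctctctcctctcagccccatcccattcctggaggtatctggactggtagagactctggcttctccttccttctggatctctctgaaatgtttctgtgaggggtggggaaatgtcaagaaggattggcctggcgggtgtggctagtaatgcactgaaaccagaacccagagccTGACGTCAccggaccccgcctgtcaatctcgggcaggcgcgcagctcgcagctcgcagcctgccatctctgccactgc
Rgs9: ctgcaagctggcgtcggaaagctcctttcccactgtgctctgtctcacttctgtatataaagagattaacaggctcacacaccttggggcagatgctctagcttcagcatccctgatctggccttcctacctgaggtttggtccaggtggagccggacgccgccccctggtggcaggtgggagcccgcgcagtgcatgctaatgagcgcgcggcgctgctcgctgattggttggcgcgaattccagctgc
Gpr6 holds 1 such element, starting 78 bases before the start site, and Rgs9 holds 0. It occurs in 1.55% of 32851 upstream windows of the same length in the table. The match is a description of the letters only.

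Drd2 encodes the D2 receptor of the indirect pathway. It was at 7.27, 7.39 and 7.32 in controls 1, 2 and 3, and at 7.25, 7.27, 6.98, 7.04 and 6.99 in tumour-bearing mice 1 to 5. Mice 3, 4 and 5 lay lowest, mouse 1 was just below the lowest control, and mouse 2 fell within the controls. The difference was -0.22 ± 0.08 SE (limma adjusted p = 0.403), and -0.26 ± 0.08 SE without mouse 1 (limma adjusted p = 0.378). Its difference had the sign opposite to that of Gpr6.

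Markers of midbrain dopamine neurons, which carry Drd2 as an autoreceptor, varied in part alongside it. The dopamine transporter gene Slc6a3 was at 9.71, 9.91 and 9.80 in the controls and at 8.30, 9.67, 6.19, 8.51 and 8.47 in tumour-bearing mice 1 to 5. Mouse 2 was near the controls and mouse 3 the lowest, for Slc6a3 as for Drd2. Mouse 1 parted from this, at 8.30 for Slc6a3 but at 7.25 for Drd2, just below the lowest control. The mean centred level of the 11 tested midbrain genes was 0.33 to 0.54 in controls and -0.86 to 0.35 in tumour-bearing mice. All 11 had a negative difference, where 45.5% of all tested genes had a positive one. None passed the threshold (limma, 0 of 11), and 10 were lower at an unadjusted p under 0.05, against 6.51% of all tested genes. Chrna6, a nicotinic receptor subunit of these neurons, differed by -1.20 ± 0.36 SE (limma adjusted p = 0.306). In the pools Drd2 was at 7.38 in controls and 7.39 in tumour-bearing mice, and Slc6a3 at 9.36 and 9.12. The part of midbrain tissue in the Drd2 values was not tested.

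Rasgrp2 encodes a calcium-responsive activator of Rap small G proteins that is abundant in striatum. It ranged from 7.05 to 7.23 in controls and from 6.99 to 7.21 in tumour-bearing mice, with mouse 5 the highest of these, and differed by -0.09 ± 0.07 SE (limma adjusted p = 0.689). Mouse 1, at 7.11, was inside the range of the controls. The pools ran the other way, at 6.97 in controls and 7.25 in tumour-bearing mice.

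Rarb encodes retinoic acid receptor beta, a transcription factor of developing and adult striatum. It ranged from 6.68 to 6.91 in controls and from 6.62 to 6.97 in tumour-bearing mice, with control 1 and tumour-bearing mouse 1 the highest of their groups. The difference was -0.03 ± 0.09 SE (limma adjusted p = 0.938), and it was 0.030 without control 1. Rarb is itself a textbook target of retinoic acid receptors, through a direct repeat in its promoter. The repeat was found as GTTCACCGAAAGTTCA, starting 52 bases before the RefSeq start within chr14:16575477-16575726 on the minus strand of GRCm38.p6. The pattern searched on both strands was GTTCA repeated in the same direction after any 6 bases, shown in capitals. It is present in 0.0670% of the 32851 windows. Because the repeat in Rarb was known beforehand, finding it there is a description of the letters only.

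**Figure D2:**
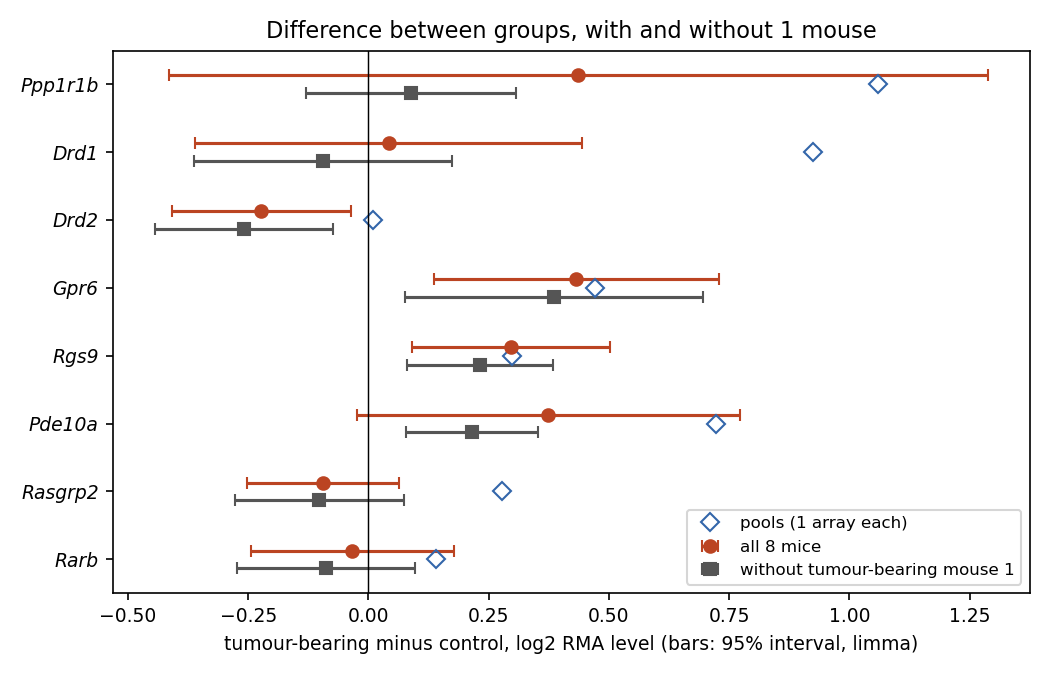
Difference between tumour-bearing and control mice (log2 RMA level) for each of 8 medium spiny neuron genes: circles use all 8 mice, squares leave out tumour-bearing mouse 1, bars are 95% intervals from limma, and open diamonds are the difference between the 2 pools. Leaving out mouse 1 moves Ppp1r1b from 0.44 to 0.09 but Gpr6 only from 0.43 to 0.39, and the pools differ by 1.06 for Ppp1r1b and 0.92 for Drd1.

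The pools showed the same genes high as mouse 1. Ppp1r1b was at 6.26 in pooled controls and 7.32 in pooled tumour-bearing mice, a difference of 1.06 or 2.09-fold, the 8th largest of 12978 tested genes. Drd1 was at 5.15 and 6.08, 1.90-fold and the 9th largest. Pde10a was at 7.66 and 8.38, or 1.65-fold, and Gpr6 at 6.84 and 7.31, or 1.39-fold. All 8 genes were higher in the tumour-bearing pool, as were 47.3% of all tested genes. Of the 8, 6 were higher by at least 1.2-fold, where 4.48% of all tested genes were higher by as much. Lower by as much were 0, against 5.02%. With 1 array per pool there is no replicate check on these differences.

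For several genes the pooled levels were not those of the average individual mouse. Whether pools and individual arrays were normalized together is not given, which limits this comparison. The log2 of the mean of the 5 tumour-bearing mice on the linear scale was 6.28 for Ppp1r1b, against 7.32 in the pool. For Pde10a it was 7.86 against 8.38. For Gpr6 the gap was smaller, with 7.19 against 7.31. For Drd1 the pool, at 6.08, lay above even the highest mouse, at 5.81. The control pool, too, lay above all 3 controls for Ppp1r1b, Pde10a and Rgs9, while for Drd1 it was just below the lowest control. The tumour-bearing pool also had the pituitary genes seen in mice 3 and 4.

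Other genes of medium spiny neurons were examined in 40 genes on 2 lists, 1 of receptors and signalling proteins and 1 of peptides and identity factors. Of these 38 had a probe set and 37 were tested; the exception, Ido1, was dim. None passed the threshold (limma, 0 of 37). At an unadjusted p under 0.05, 2 were higher, against 3.78% of all tested genes, and 2 lower, against 6.51%. The median difference of the 37 was 0.06, or -0.0014 without mouse 1. The 37 genes were highest in tumour-bearing mouse 1 in 23 cases, or 62.2%, where 14.5% of all tested genes were highest in that array. In the other 7 individual arrays the share of the 37 genes was 0 to 10.8%. Of the 8 medium spiny neuron genes 5 were highest in mouse 1, 1 each in control 2, control 3 and tumour-bearing mouse 5. Of 12978 tested genes 20 exceeded all other individual arrays by at least 0.5 in mouse 1, among them Ppp1r1b, Pde10a, Meis2 and Gng7. In the other 7 arrays 0 to 10 genes did so, with 0 medium spiny neuron genes and 0 of the listed striatal genes.

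**Figure D3:**
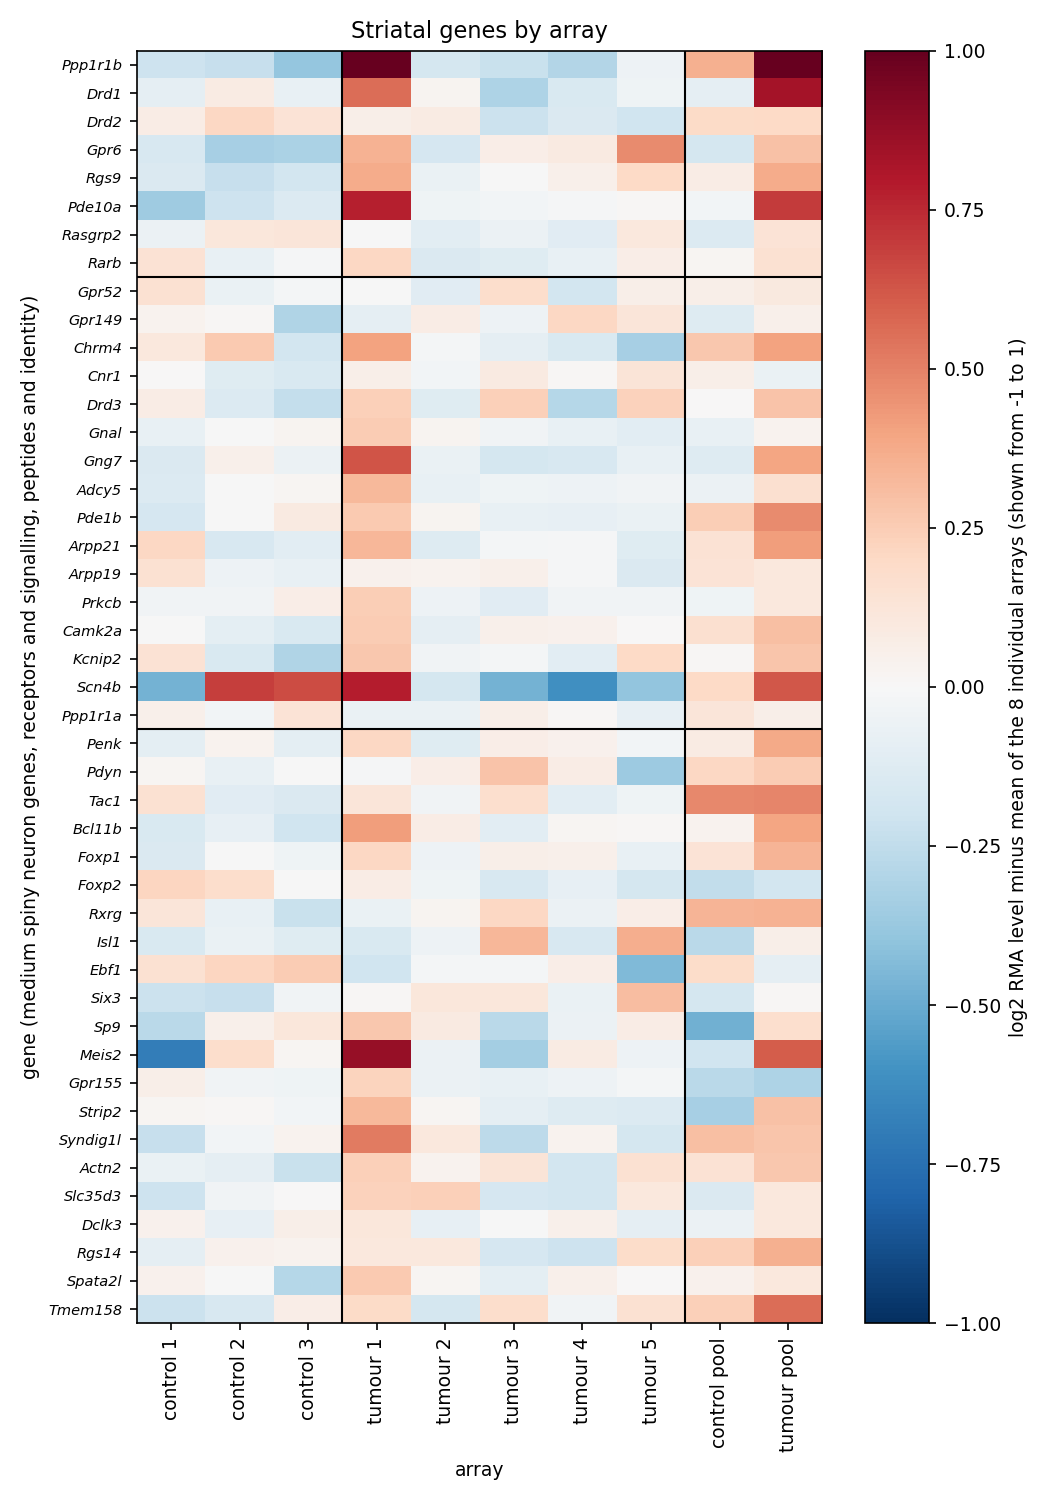
Level of 8 medium spiny neuron genes and 37 other striatal genes on each of 10 arrays (columns), as log2 RMA level minus the gene's mean over the 8 individual arrays; the colour scale ends at -1 and 1, and lines separate the gene lists, the groups and the pools. The columns of tumour-bearing mouse 1 and the tumour-bearing pool are red over most rows, and 23 of the 37 other genes are highest in mouse 1 among individual mice.

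Among the listed receptors and signalling genes, some were high in mouse 1 and others were not. Gng7, the G protein gamma subunit paired with the striatal stimulatory alpha subunit, was at 8.59 in that mouse, against 7.78 to 8.01 in the other 7. Adcy5, the main striatal adenylyl cyclase, was at 8.86, against 8.40 to 8.56. Gnal, the stimulatory alpha subunit itself, was at 9.10, against 8.74 to 8.87. These 3 genes differed between the groups by 0.08, 0.06 and 0.03, none past the threshold. Camk2a, a calcium-dependent kinase subunit of forebrain neurons, was at 10.57 in mouse 1, against 10.17 to 10.37. Ppp1r1a, another inhibitor of protein phosphatase 1, was at 7.56 in mouse 1, within the 7.55 to 7.77 of the others, and the receptor gene Gpr52 at 7.41, within 7.22 to 7.58. Gng7, Adcy5, Gnal, Camk2a, Ppp1r1a and Gpr52 were chosen after their values were seen. Scn4b, a sodium channel beta subunit, was split otherwise: it was at 5.98, 5.94 and 6.07 in controls 2 and 3 and tumour-bearing mouse 1, and at 4.68 to 5.11 in the other 5 mice.

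The identity factors followed in part. Meis2, a homeobox factor of striatal development, was at 8.18 in mouse 1 and 6.61 to 7.48 in the other 7, and Bcl11b, also called CTIP2 and a defining factor of medium spiny neurons, was at 6.27 and 5.65 to 5.92. Their differences between groups were 0.27 ± 0.27 SE and 0.23 ± 0.12 SE (limma adjusted p = 0.786 and 0.536). Ebf1, a factor of direct pathway neurons, was lower in all 5 tumour-bearing mice (-0.33 ± 0.11 SE, limma adjusted p = 0.360), at 6.15 to 6.66 against 6.74 to 6.85, and was not high in mouse 1. It was the 1 gene of 37 whose groups did not overlap with tumour-bearing mice lower, a pattern shared by 5.19% of tested genes. Six3, Foxp2, Actn2 and Isl1 differed by 0.26, -0.20, 0.20 and 0.18, with limma adjusted p of 0.400 to 0.680. Hypothalamic neurons also make the neuropeptide precursors. Penk, the enkephalin precursor of indirect pathway neurons, was at 10.28 in mouse 1 and 9.95 to 10.14 in the others. Of the peptide genes of the direct pathway, Pdyn was at 6.08 in mouse 1 and 5.73 to 6.38 in the others, and Tac1 at 8.89 and 8.63 to 8.94. These 3 peptide genes were also chosen after their values were seen.

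The genes whose levels followed the mean profile of the 8 genes most closely over the 8 individual arrays were 1810010H24Rik, Dscaml1, Tiam1, Ppp1r2, Sipa1l1 and Otof, with correlations of 0.966 to 0.990 among 12970 candidates, given as a description. All 6 were highest in tumour-bearing mouse 1. Otof, for example, was at 6.98 there and 6.17 to 6.39 in the other 7 mice. Tiam1, a Rac activator, was at 7.92 and 7.23 to 7.56.

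**Figure D4:**
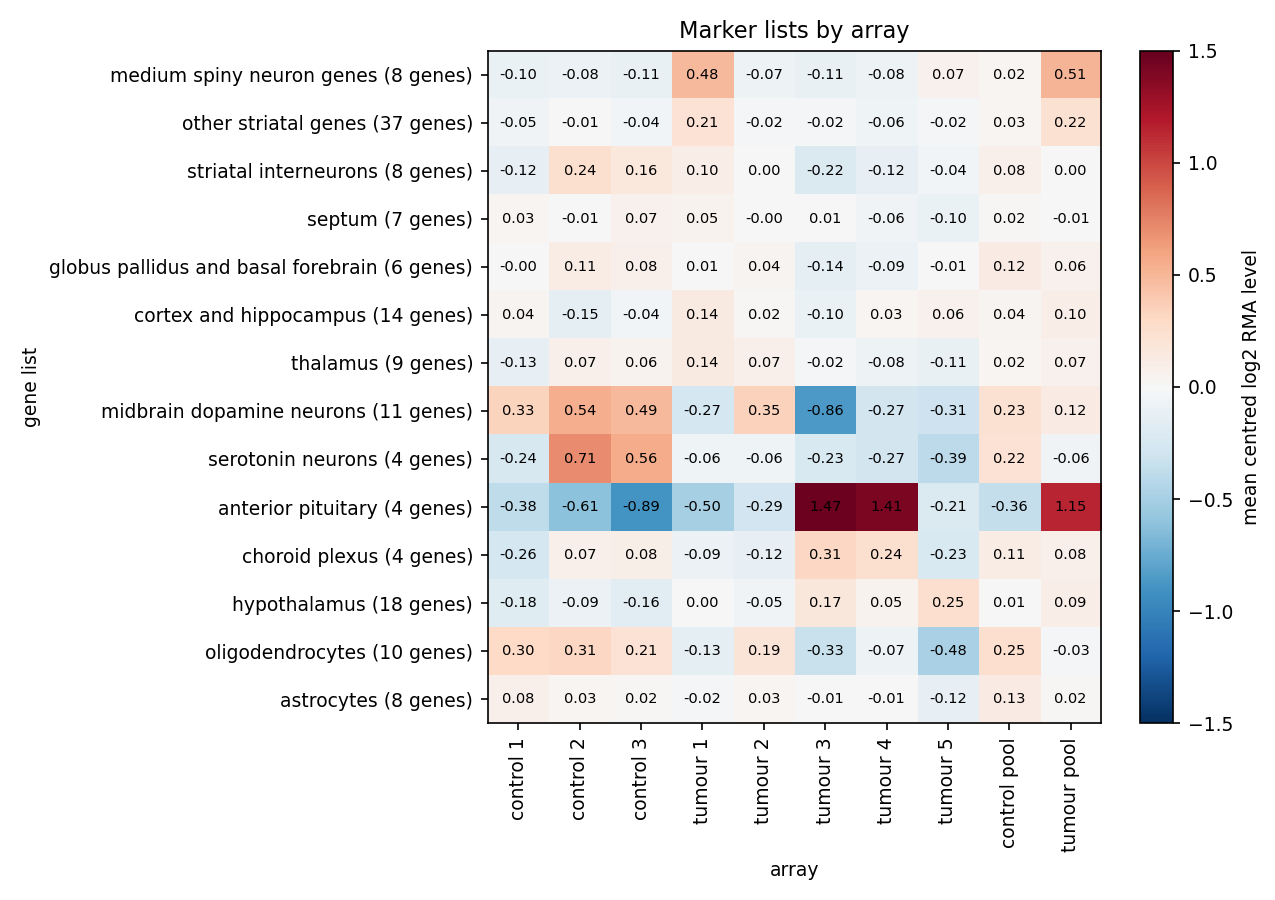
Mean centred log2 RMA level of each marker list (rows, with the number of tested genes) on each of 10 arrays (columns), where 0 is the mean of the 8 individual arrays; the medium spiny neuron genes are the first row. Tumour-bearing mouse 1 is at 0.48 and the tumour-bearing pool at 0.51 in that row, while mice 3 and 4 stand out in the pituitary row at 1.47 and 1.41.

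The 8 medium spiny neuron genes had a mean centred level of 0.48 in tumour-bearing mouse 1 and 0.51 in the tumour-bearing pool, against -0.11 to 0.07 in the other 7 mice and 0.02 in the control pool. The 37 other striatal genes were at 0.21 in mouse 1 and -0.063 to -0.0055 in the other individual mice. The lists of other forebrain neighbours moved less in mouse 1 than the 8 genes. The cortical and thalamic lists were nevertheless also highest in that mouse. The cortex and hippocampus list was at 0.14 there and -0.15 to 0.06 elsewhere among individual mice, and the thalamus list at 0.14 and -0.13 to 0.07. The septum list was at 0.05, inside the range of the others. The list of striatal interneurons was at 0.10, below controls 2 and 3, and the pallidal list was at 0.01, also inside the range. In the cortical list Tbr1, a transcription factor of excitatory cortical neurons, was high in the tumour-bearing mice as a group, at 4.44 to 5.21 against 4.02 to 4.17 in controls (difference 0.85 ± 0.18 SE, limma adjusted p = 0.191). It passed the filter on the 5 tumour-bearing arrays and on 0 control arrays, so it was tested only through the group where it is high. By contrast, Slc17a7, the cortical vesicular glutamate transporter, was at 6.91 in mouse 1 and 6.16 to 7.35 in the others.

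Among individual mice, the array highest in medium spiny neuron genes was not one of those high in pituitary genes. The pituitary list was at -0.50 in mouse 1, within the -0.89 to -0.21 of the controls and mice 2 and 5. The tumour-bearing pool was high in both lists, at 0.51 and 1.15. The part of neighbouring tissue in the values of mouse 1 and of the pool was not tested.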

How the data were processed

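The deposited values are log2 levels, 1 per probe set, and the submitters' processing notes name RMA. Its version, the probe set definition and whether all arrays were normalized together are not given in the sources used here. The log2 scale was inferred from the range. RMA hides a shift of all transcripts together and compresses folds. Of 35556 probe sets, 21218 were paired with 1 gene, 1881 with several and 12457 are unnamed here.

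A probe set was tested when its level exceeded 4.32 in log2 units, which is 20 in linear units, in 3 or more of the 8 individual mice; this kept 22837 probe sets and 12978 genes. The group difference was fitted with lmFit and eBayes (intensity trend) of limma 3.58.1, run in R 4.3.3 with statmod 1.5.0. P-values were adjusted by Benjamini-Hochberg across these 22837 probe sets, and calls were made under 0.05. They set the group difference against the variation between these mice, with each variance drawn towards the intensity trend over all tested probe sets. The pools were not fitted in the main test. On simulated data for this comparison over 22837 probe sets, 40.3% of probe sets changed by 0.5 on the log2 scale were recovered. The share was 88.1% at 1 and 95.5% at 2, with 2 false calls.

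The genes and lists were chosen with earlier results of these data known. The text names all 8 genes, the 8 other striatal genes with the largest differences, and the 6 genes most like the mean profile. It also names 1 or both of the 2 most variable genes of some marker lists, and genes said to be chosen after their values were seen. Th, Pvalb, Ndnf, Opalin, Ugt8a and Aqp4, variable list genes not named above, lay below all controls in every tumour-bearing mouse. Oxt lay above all controls in each. None of these passed the threshold (limma adjusted p = 0.143 to 0.277), and the remaining unnamed ones overlapped between groups. A list's level on an array is the mean of centred log2 values of its tested genes. Promoter sequences came from RefSeq (GRCm38.p6), matched by symbol for 7 of the 8 genes. Other settings tried were the dim-signal filter, eBayes options, array weights, normalization, the pools as samples, probe set choice, a replicate block and leaving out each mouse; leaving out 2 mice together was added after seeing the data. Figures used matplotlib 3.10.9 in Python 3.11.15.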

Additional observations from a re-analysis of the deposited data

Results flagged for a closer look

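In a group of 5 mice a value was listed when its gap to the nearest other mouse exceeded 0.71 of the range, which chance gives in about 1 in 20 groups; 59 named genes and 16 lists were examined in the tumour-bearing mice, and many of these genes were named because they were high in mouse 1. Tumour-bearing mouse 1 lay apart for Ppp1r1b (7.47) and Pde10a (8.46), for the signalling genes Gng7 (8.59) and Adcy5 (8.86), and for 4 of the genes most like the set, Dscaml1 (7.40), Ppp1r2 (8.98), Sipa1l1 (8.76) and Otof (6.98). It also lay apart for Ddn (7.55), Lrrc10b (5.04) and Rasd1 (6.83), which, like Gng7 and Adcy5, were chosen after their values were seen. The mean centred level of the 37 other striatal genes was 0.21 in this mouse, with 0.25 for receptors and signalling and 0.19 for peptides and identity. Elsewhere, mouse 3 was low for the pallidal marker Npas1 (5.43) and mouse 5 for the choroid plexus marker Otx2 (4.26).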

How the results depend on the processing

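Under all 20 alternatives 0 of the 8 medium spiny neuron genes and 0 of the tested other striatal genes were called; the lowest limma adjusted p of any of the 8 was 0.147, when testing was limited to probe sets naming a single gene, and 0.739 with the replicate block. The block used replicate numbers that are only names: same-numbered mice deviated together with correlations of -0.0020, 0.0084 and 0.0089. It gave a median difference of 0.20. Tumour-bearing mice 4 and 5 have no control of the same number, so they do not enter the difference under the block. Leaving out 1 mouse gave a median difference of -0.00015 to 0.22, the lowest without tumour-bearing mouse 1. The Drd1 difference turned to -0.029 with array weights and ranged from -0.094 to 0.12 when 1 mouse was left out, the lowest without mouse 1; it was 0.19 with the pools as samples and 0.21 without mice 3 and 4. The Rarb difference ranged from -0.088 (without mouse 1) to 0.030 (without control 1) and was 0.024 without mice 3 and 4, an alternative chosen after seeing the data. Gpr6 stayed between 0.35 and 0.51, Rgs9 between 0.23 and 0.35, and Drd2 between -0.26 and -0.16 over all alternatives. Ppp1r1b ranged from 0.088 to 0.72 and Pde10a from 0.22 to 0.48. In the simulated data 40.3% of probe sets changed by 0.5 were recovered, so differences of this size can be missed. This is an average over randomly drawn probe sets and not a rate for any of the 8 genes.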

Other observations

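Gpr6 and Npy, the appetite-stimulating neuropeptide gene, were highest in the same 4 mice. Npy was at 8.79, 8.63 and 8.32 in controls 1, 2 and 3, and at 9.45, 8.87, 9.32, 9.35 and 10.13 in tumour-bearing mice 1 to 5. In both genes mouse 5 was highest, then mice 1, 4 and 3. Mouse 2 lay above control 1 for Npy and just below it for Gpr6, and controls 2 and 3 were in the opposite order. Npy ranked 10 of 12977 genes by correlation with Gpr6 over the 8 individual arrays, and Rgs9 ranked 23. The correlation takes in the difference between the groups, which was positive for Gpr6, Npy and Rgs9. Npy was singled out after its values were seen, and both genes were compared in the same 8 mice.

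Of the 20 genes that exceeded all other individual arrays by at least 0.5 in tumour-bearing mouse 1, Gabrd, a GABA receptor subunit gene, came second to Ppp1r1b, at 5.53 against 3.88 to 4.59 in the other 7 mice. Lrrc10b was at 5.04, and Rasd1, a Ras-related gene, at 6.83 against 6.09 to 6.33. Strip2, one of the listed identity genes but not one of these 20, was at 7.39 against 6.93 to 7.09. It was at 6.73 in pooled controls against 7.36 in pooled tumour-bearing mice. These genes, too, were chosen after their values were seen.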
